A study of Mus musculus with 24 samples.

Results

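The arms of miR-582 and miR-676 are 4 of the 1908 mature mouse miRNA names counted in liver small RNA libraries (1324 of the names had a count in any library). The 4 are mmu-miR-582-5p, mmu-miR-582-3p, mmu-miR-676-5p and mmu-miR-676-3p, written below without the species prefix. They were chosen from measured values in these libraries: all 4 were higher in one obese group (AM608) than in lean liver (RCD), and the 5p arms dropped in the other obese group (AM132). Differences of AM608 from RCD and of AM132 from AM608 are therefore given as a description, without a test.

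The study compared 3 groups of 8 liver samples from C57Bl/6J mice. RCD mice were lean, age matched and kept on regular chow for 11 weeks, with no injection described for them. AM608 and AM132 mice became obese over 11 weeks of high fat diet. They then received an antisense oligonucleotide by vein on each of 3 days in a row, at 3.3 mg/kg, and their livers were taken 7 days after treatment. These oligonucleotides carry locked nucleic acid (LNA), a modified sugar that strengthens base pairing. The AM132 oligonucleotide, a 16-mer, is complementary to mature miR-132, and the control oligonucleotide of AM608, a 15-mer, to miR-608, which mice do not have. Diet and injection cannot be told apart between AM608 and RCD, and both obese groups were injected. Samples carry numbers but no animal, so p-values measure the spread between samples, which may be partly technical. Age and sex of the mice were not given.

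A miRNA is cut from a hairpin precursor, whose 5′ and 3′ sides give the 5p and the 3p arm. Both arms leave the precursor as a duplex, an Argonaute protein keeps a strand as the guide, and the other strand is mostly degraded, so the arms of a precursor can differ in level although they are transcribed together. The guide finds its target mRNAs mainly through its seed, bases 2 to 8. Many hairpins lie in introns of protein-coding genes and can be transcribed with them.

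Mature sequences show what the counts of each arm stand for, and are given from the RefSeq miRNA table on GRCm38.p6 with the seed in capitals.
miR-582-5p: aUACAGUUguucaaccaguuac
miR-582-3p: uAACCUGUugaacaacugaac
miR-676-3p: cCGUCCUGagguuguugagcu
The 3 seeds differ, and no other mature miRNA of the table has any of them. miR-676-5p had no mature entry in the table.

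The hairpins are shown with these mature arms in capitals, since the balance of the arms is the main subject below.
Mir582: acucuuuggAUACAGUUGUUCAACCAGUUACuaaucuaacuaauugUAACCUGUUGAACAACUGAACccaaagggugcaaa
Mir676: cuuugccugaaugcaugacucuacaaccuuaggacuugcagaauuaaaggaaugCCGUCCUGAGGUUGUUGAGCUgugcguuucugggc
Mir582 lies at chr13:109324744-109324824 (GRCm38, plus strand), in an intron of Pde4d on the same strand, and 6 of the 20 annotated Pde4d transcripts span it (GENCODE M21). Pde4d encodes a phosphodiesterase that degrades cyclic AMP, the messenger of glucagon and adrenaline in hepatocytes. Mir676 lies at chrX:100381097-100381185 (plus strand), in an intron of Eda on the same strand, spanned by 9 of 12 annotated transcripts. Eda encodes ectodysplasin A, a TNF family ligand of skin and tooth development whose mRNA has been reported to be raised in the liver of obese mice. Host mRNAs were not measured in these libraries. The arms of miR-582 hold an unbroken run of 12 complementary bases (CAGUUGUUCAAC in the 5p arm), and 3 of 87 precursors with both mature sequences had a run at least that long, against a median of 7.

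Library totals ran from 5689143 to 8734721 counts. Levels are CPM (reads per 1e6 reads of tested miRNAs), scaled by trimmed mean of M values (TMM) factors, and all 4 arms were among the 421 miRNAs with enough counts to be tested. RCD library 3 stood apart: its 8 neuronal marker miRNAs summed to 1957 CPM of the library total (median 458 over RCD, 591 in AM608 and 448 in AM132), and its 5 mesenchymal markers to 33809 (medians 14364, 16132 and 11336). It was also the highest RCD library for endothelial, erythroid, striated muscle and leukocyte markers, the last with 3 of 5 listed names found in the table, at 1342 CPM against a median of 189. Hepatocyte markers ran from 351314 to 500958 in RCD, 400754 to 480598 in AM608 and 475762 to 542928 in AM132. Markers of biliary and other epithelial cells ran from 693 to 2301 with a median of 1626 in RCD, from 775 to 3878 with a median of 2446 in AM608, and from 982 to 2364 with a median of 1201 in AM132. Their median was highest in AM608, as was that of each of the 4 arms. This was not particular to them: the medians of neuronal, mesenchymal and endothelial markers were also highest in AM608 (endothelial 34616 in RCD, 46949 in AM608 and 42067 in AM132). Those of hepatocyte, leukocyte, erythroid and striated muscle markers were not. These are medians of sums, and single markers could go the other way. Of 4 tested neuronal markers, 0 were called higher in AM608 than in RCD and 2 lower (miR-9-5p and miR-137-3p). Of 5 mesenchymal markers, 0 were called higher and 1 lower (miR-145a-5p). Of 2 endothelial markers, 1 was called higher (miR-126a-3p) and 0 lower. Over all tested miRNAs, 15.2% were called lower in that comparison. Of the 6 biliary and other epithelial markers, miR-200c-3p was called higher in AM608 than in RCD (0.48, edgeR adjusted p = 0.0256) and miR-429-3p lower in AM132 than in AM608 (−1.19, edgeR adjusted p = 0.0445). Each comparison thus called 1 of the 6, where 13.5% of all tested miRNAs were called higher and 8.31% lower. It was not the same marker: miR-429-3p did not pass in AM608 against RCD (0.27, edgeR adjusted p = 0.638), nor miR-200c-3p in AM132 against AM608 (−0.34, edgeR adjusted p = 0.189). No listed marker found in the table was at 0 in all libraries. The part of other cell types in the levels below was not tested, and in bulk liver fewer cells of a type and less RNA per cell cannot be told apart.

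miR-582-3p, the more abundant arm of its precursor, was nearly absent from lean liver. It ran from 1.66 to 6.17 CPM in RCD with a median of 2.48 (12 to 59 reads per library), from 31.3 to 89.8 CPM in AM608 with a median of 71.8, and from 6.22 to 35.8 CPM in AM132 with a median of 17.7. Every AM608 library lay above every RCD library, and the AM132 libraries filled the space between. The fold between AM608 and RCD was 22.9, a log2 fold change of 4.52 (SE 0.378, n = 8 each), ranking second from the highest of all 421 tested miRNAs. All 4 arms had groups that did not overlap in that comparison, where 4.04% of all tested miRNAs did so as higher, but this is the difference for which they were chosen. The highest RCD value came from library 3, and without that library the log2 fold change was 4.81.

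In AM132, miR-582-3p was lower than in AM608 by a log2 fold change of −1.67 (SE 0.329), and 6 of 8 AM132 libraries lay below the whole AM608 range. Libraries 2 and 7 of AM132, at 34.7 and 35.8 CPM, lay within it. The lowest AM132 library, at 6.22 CPM, was just above the highest RCD library at 6.17 CPM, so AM132 and RCD did not overlap either.

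miR-582-5p was the scarcest of the 4 arms and had its high level in AM608 alone among the 3 groups. It ran from 0.30 to 2.04 CPM in RCD with a median of 0.955 (2 to 14 reads per library), from 5.07 to 19.9 CPM in AM608 with a median of 13.4 (36 to 189 reads), and from 0.138 to 2.55 CPM in AM132 with a median of 1.05 (1 to 15 reads). RCD and AM132 overlapped over nearly their whole range, and every AM608 library lay above both. The log2 fold change was 3.69 for AM608 against RCD (SE 0.382) and −3.60 for AM132 against AM608 (SE 0.383). The group means were 1.01 ± 0.609 CPM in RCD, 13.2 ± 4.96 in AM608 and 1.09 ± 0.674 in AM132 (SD, n = 8 each). By mean level it ranked 228 of 421 miRNAs in AM608, 411 in AM132 and 416 in RCD. At 57 reads over all RCD libraries and 53 over all AM132 libraries, this arm had the fewest reads of the 4, and its coefficients of variation were 60.3% and 61.7%.

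**Figure D1:**
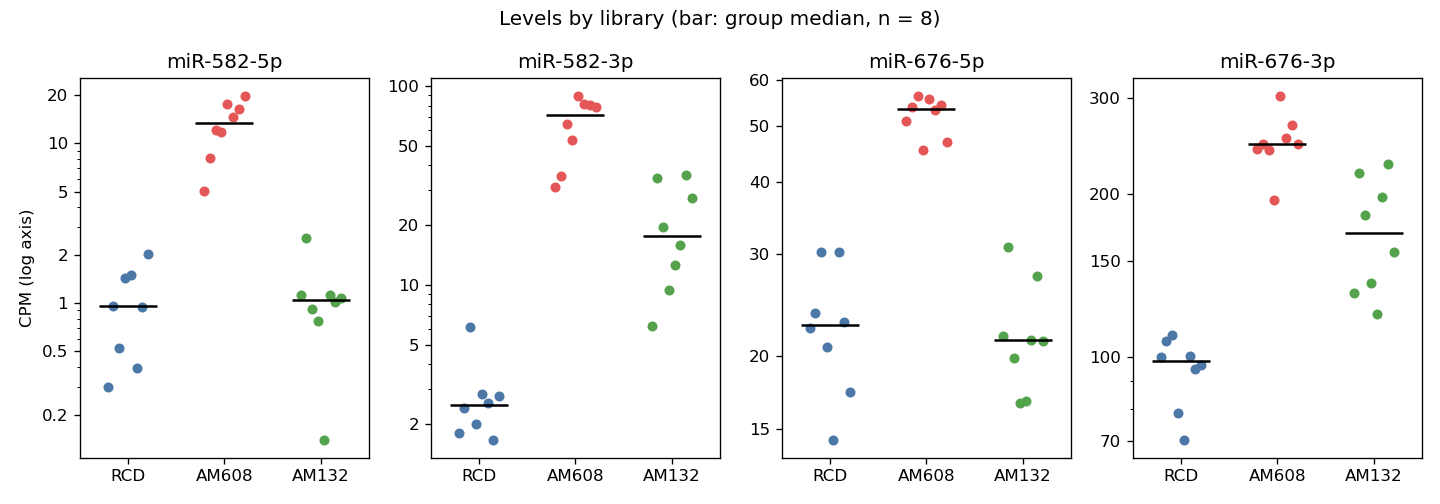
Level of each arm in CPM (log axis) in each library, by group, 1 point per library, with a bar at the median of 8. The 5p arms of AM132 lie among the RCD points, and the 3p arms of AM132 lie above all RCD points.

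miR-676-3p, the most abundant of the 4 arms, was present in every group. It ran from 70.1 to 109.6 CPM in RCD with a median of 98.0, from 194.8 to 303.5 CPM in AM608 with a median of 247.4, and from 119.8 to 226.8 CPM in AM132 with a median of 169.5. The order was RCD, AM132 and AM608, with no overlap between RCD and either obese group. AM132 and AM608 overlapped: 5 of 8 AM132 libraries lay below all AM608 libraries. The log2 fold change was 1.40 for AM608 against RCD (SE 0.131) and −0.54 for AM132 against AM608 (SE 0.129).

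miR-676-5p had the tightest level of the 4 in AM608, with a coefficient of variation of 7.74%. It ran from 14.3 to 30.2 CPM in RCD with a median of 22.7, from 45.4 to 56.3 CPM in AM608 with a median of 53.5, and from 16.6 to 30.8 CPM in AM132 with a median of 21.3. As with miR-582-5p, the RCD and AM132 libraries covered the same range and all AM608 libraries lay above it. The log2 fold change was 1.19 for AM608 against RCD (SE 0.145) and −1.24 for AM132 against AM608 (SE 0.145). Both 5p arms thus had AM132 and AM608 libraries that did not overlap, as had 4.99% of all tested miRNAs as lower, again in a comparison that chose them. Scaling by library totals in place of TMM factors moved the value of miR-676-5p to −1.49 and the median of all tested miRNAs from 0.05 to −0.21 in AM132 against AM608.

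AM132 against RCD is the remaining comparison, which the choice of members did not name. It shares its libraries with those that did, so its tests are not independent of the choice. Arms chosen as low in RCD against AM608, and some of them for a drop in AM132, can part here through the choice. The adjusted p-values of the arms are therefore a description, and do not test whether the arms of a precursor part. In this comparison the arms of each precursor parted. miR-582-3p was 7.18-fold higher in AM132 than in RCD (2.84 on the log2 scale, SE 0.358, adjusted p = 1.15e-06 by edgeR's quasi-likelihood test), and higher in 8 of 8 AM132 libraries than in any RCD library. miR-676-3p was 1.81-fold higher (0.86, SE 0.129, edgeR adjusted p = 1.37e-05), also in 8 of 8. Over all tested miRNAs, 34.2% were called in this comparison, 15.4% as higher, and 3.09% had libraries that did not overlap as higher.

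The 5p arms were not told apart from lean liver. Their drop in AM132 was part of the choice, so this nearness to RCD may be partly selected, and its p-values are also a description. For miR-582-5p, counts were enough for a test only through AM608, the group where it was chosen for being high. With AM132 and RCD alone it was not tested. miR-582-5p differed by 0.09 on the log2 scale (SE 0.416, adjusted p = 0.878 by edgeR), and a range of 2 SE on either side spans 0.597-fold to 1.89-fold, which leaves room for a moderate difference in either direction. miR-676-5p had −0.05 (SE 0.144, edgeR adjusted p = 0.80), with 0.791-fold to 1.18-fold as the corresponding range, a tighter bound that follows from its higher counts. With each library left out in turn, the values ran from −0.23 to 0.28 for miR-582-5p and from −0.15 to 0.02 for miR-676-5p, and none was called.

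**Figure D2:**
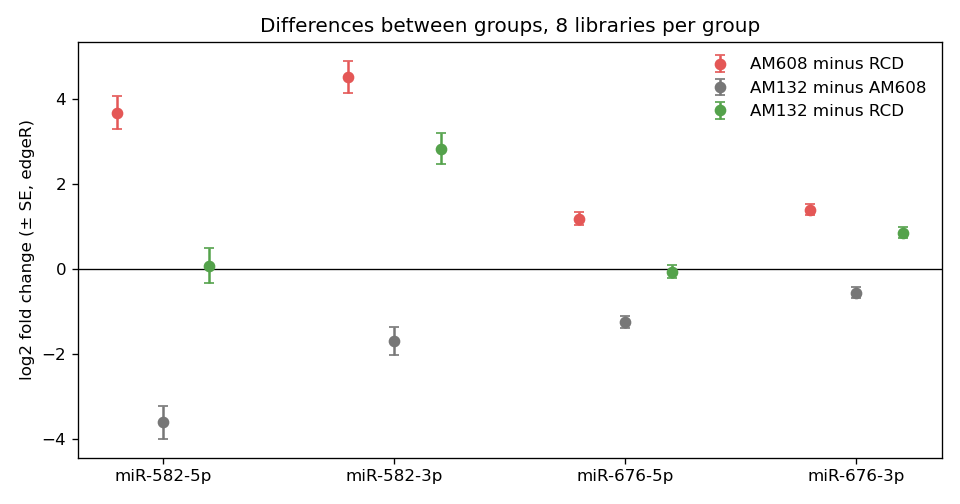
Log2 fold change of each arm in the 3 comparisons between groups, with bars of 1 SE from the edgeR fit (8 libraries per group). The 5p arms of AM132 are near 0 against RCD (0.09 and −0.05), and the 3p arms are at 2.84 and 0.86.

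The balance of the arms was then taken within each library as the log2 ratio of 5p to 3p counts, with 0.5 added to each count, which needs no scaling between libraries. The 3p arm had more reads than the 5p arm in all 24 libraries for both precursors. In RCD, whose ratio the choice of members did not use, the mean log2 ratio was −1.50 ± 1.10 for miR-582 and −2.08 ± 0.241 for miR-676 (SD, n = 8 each). Each was below 0 in 8 of 8 libraries (two-sided exact sign-flip permutation test, p = 0.00781, the smallest that 8 libraries allow). How many other precursors had all RCD libraries on 1 side of 0 was not counted, so this does not set miR-582 and miR-676 apart. miR-582-5p had 2 to 14 reads per library in RCD, and was among the tested miRNAs only through AM608. Ligation of adapters favours some ends over others, so the ratio of reads is not the ratio of molecules.

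For miR-676, the share of 5p reads among the reads of both arms ran from 15.3 to 23.2% in RCD, from 15.5 to 18.96% in AM608 and from 9.77 to 14.2% in AM132. The RCD and AM608 shares overlapped, and every AM132 library lay below both groups. The mean log2 ratio was −2.25 ± 0.126 in AM608 and −2.95 ± 0.208 in AM132 (SD, n = 8 each). The 5p arms were chosen for their drop in AM132, so the ratios of AM132 are a description without a test. AM132 minus RCD was −0.87 on the log2 scale (SE 0.11), and all 8 AM132 libraries lay below all RCD libraries. Of 107 precursors with both arms tested, 3.74% did not overlap as lower in that comparison.

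For miR-582, the share of 5p reads ran from 7.81 to 42.4% in RCD with a median of 31.5%, from 13.95 to 20.2% in AM608 with a median of 16.7%, and from 1.09 to 15.4% in AM132 with a median of 5.55%. RCD had the widest range, with 2 to 14 5p reads per library against 36 to 189 in AM608. Its lowest share was that of library 3, which had 5 reads of the 5p arm and 59 of the 3p arm, where the other RCD libraries had 12 to 19 of the 3p arm. The mean log2 ratio was −2.30 ± 0.204 in AM608 and −4.14 ± 1.08 in AM132 (SD, n = 8 each). AM132 minus RCD was −2.64 on the log2 scale (SE 0.421), with some overlap, since AM132 library 1 was at −2.37 and RCD library 3 at −3.44. Without RCD library 3 the difference was −2.92.

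**Figure D3:**
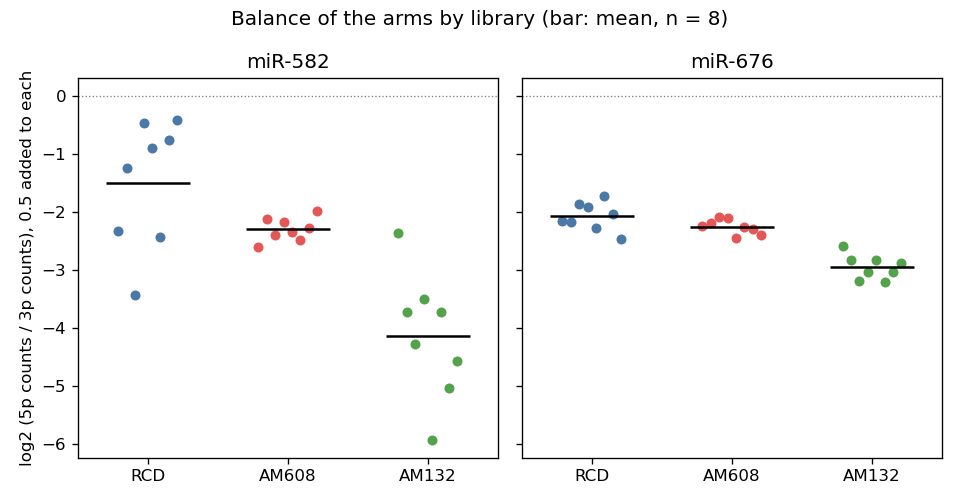
Log2 ratio of 5p to 3p counts (0.5 added to each) of both precursors in each library, by group, with a bar at the mean of 8 libraries; the dotted line at 0 marks equal counts. All points lie below 0, and for miR-676 every AM132 point lies below every point of the other groups.

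Set against AM608, the ratio in AM132 changed by −1.84 for miR-582 (SE 0.421) and by −0.70 for miR-676 (SE 0.11), as a description. Over all 107 precursors the median change was 0.03, with a 5th percentile of −0.70 and a 95th of 1.12. The change of miR-582 was the lowest of the 107 and that of miR-676 the seventh lowest. For miR-676 all 8 AM132 libraries lay below all AM608 libraries, as was so for 4.67% of precursors, and for miR-582 there was overlap. Next to miR-582 came miR-139 (−1.77), whose 5p arm was lower while miR-139-3p was near its AM608 level (log2 fold changes −1.81 and −0.09, edgeR adjusted p = 1.65e-09 and 0.675). After it came miR-674 (−1.18), through a higher 3p arm (1.30, edgeR adjusted p = 5.68e-08) while its 5p arm did not pass (0.11, edgeR adjusted p = 0.668).

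At the other end were miR-132, whose 3p arm had no read in AM132, miR-455 (3.52) and miR-200b (2.08). Precursors whose ratio was called in AM132 against AM608 thus went both ways, 13.1% higher and 5.61% lower. Between AM608 and RCD the ratio differed by −0.80 for miR-582 (SE 0.421) and by −0.18 for miR-676 (SE 0.11), where 6.54% of precursors were called in either direction.

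**Figure D4:**
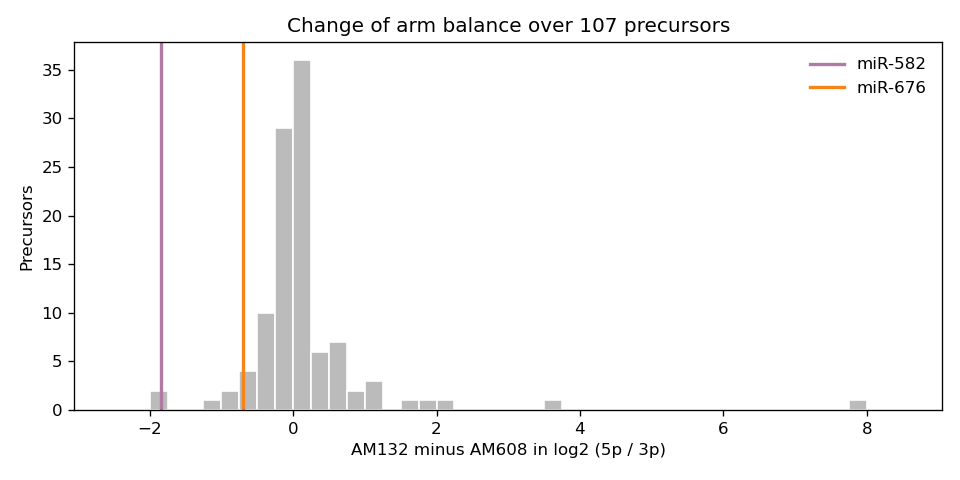
Histogram of the change in log2 5p to 3p ratio, AM132 minus AM608, over 107 precursors with both arms tested, in bins of 0.25, with lines at miR-582 and miR-676. Most precursors lie near 0 (median 0.03), miR-582 is the lowest at −1.84 and miR-676 is at −0.70.

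Over all tested miRNAs, 13.5% were called higher in AM608 than in RCD and 8.31% lower in AM132 than in AM608. Both arms of a precursor were called higher in AM608 than in RCD for 9 of the 107 precursors: miR-152, miR-1981, miR-221, miR-351, miR-423, miR-505, miR-582, miR-676 and miR-802. miR-582 and miR-676 are among them by the way they were chosen. Of the other 7, none had both arms called lower in AM132 than in AM608: miR-351 had its 5p arm lower (−0.38, edgeR adjusted p = 0.0176) and miR-505 its 3p arm (−0.47, edgeR adjusted p = 0.0456). miR-802, with arms raised by 1.93 and 2.24 between RCD and AM608, was at 0.02 and 0.03 in AM132 against AM608, neither called (edgeR adjusted p = 0.97 and 0.931).

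Within a group, libraries can be asked whether the 4 arms varied together, which the choice of members did not use. Over 18 relations (6 pairs of arms in 3 groups, log2 CPM, 8 libraries each, exact permutation test over all pairings), 1 passed after Benjamini-Hochberg adjustment. It was that of both arms of miR-582 in AM608, with Pearson r = 0.951 (exact permutation p = 5.70e-04, adjusted p = 0.0103) and Spearman rho = 0.833 (exact permutation p = 0.0154, adjusted p = 0.0923). AM608 libraries 1 and 2 were the lowest for both arms, and without them r was 0.803 (exact permutation p = 0.0556 over 6 libraries), so the call was not kept in this smaller set. Leaving out the same libraries moved r of miR-582-3p with miR-676-3p in AM608 from 0.436 (rho = 0.714, adjusted exact permutation p = 0.51 and 0.173) to 0.938 (exact permutation p = 0.00278, not adjusted), and that of miR-582-5p with miR-676-3p from 0.33 to 0.667.

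The arms of miR-676 gave r = 0.809 in AM132, 0.709 in AM608 and 0.770 in RCD (rho 0.667, 0.452 and 0.810), which did not pass after adjustment (exact permutation p = 0.0135, 0.0374 and 0.0277, adjusted p = 0.083, 0.0867 and 0.083). Without the 2 libraries farthest from the median of the 5p arm, r was 0.553, 0.409 and 0.555 in the same order. In AM132, library 2 was the highest for both 5p arms and library 7 for both 3p arms. Arms of different precursors had r of 0.677 to 0.793 there, with none past adjustment (lowest adjusted p = 0.083, exact permutation tests). In RCD, miR-582-5p and miR-676-5p had r = −0.731 (rho = −0.714, exact permutation p = 0.0385 and 0.0576, adjusted p = 0.0867 and 0.173), with miR-582-5p at 2 to 14 reads, and r = −0.867 without the 2 farthest libraries. When levels were scaled by library totals alone, 3 relations passed in AM132, 2 in AM608 and 1 in RCD.

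**Figure D5:**
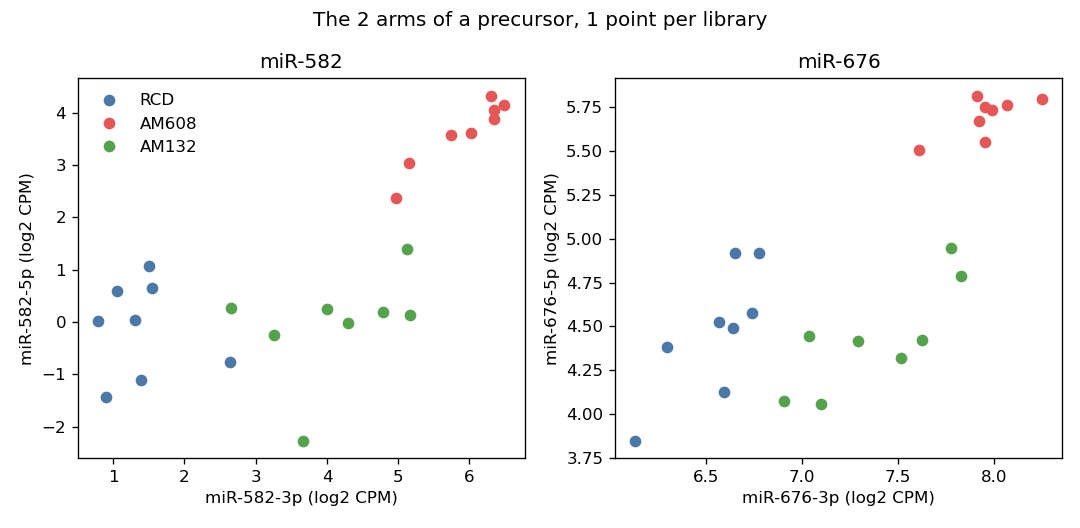
Level of the 5p arm against the 3p arm of the same precursor (log2 CPM), 1 point per library, coloured by group. In both panels AM132 lies to the right of RCD at a like height, and AM608 lies above both.

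The miRNAs with the most similar levels were found by Pearson r of log2 CPM over all 24 libraries, a description that mixes differences between groups with those within them. For both 3p arms the nearest was miR-205-5p, an epithelial miRNA, with r = 0.926 for miR-582-3p and 0.918 for miR-676-3p. miR-205-5p averaged 1.95 ± 0.999 CPM in RCD, 55.9 ± 20.8 in AM608 and 19.04 ± 14.9 in AM132 (SD, n = 8 each). The means of miR-582-3p were similar, at 2.77 ± 1.44, 64.5 ± 22.3 and 20.2 ± 11.3 CPM. miR-149-5p (r = 0.908 and 0.851) and miR-744-5p (0.886 and 0.902) followed for these arms, both with an AM132 mean close to that of AM608 (249.5 against 272.8 CPM and 466.8 against 493.5 CPM).

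For miR-582-5p the nearest were miR-322-3p (r = 0.803), miR-34a-5p (0.768), a target of p53, and miR-205-5p (0.706). For miR-676-5p they were miR-340-3p (0.73), miR-365-2-5p (0.70) and miR-322-3p (0.694). miR-34a-5p averaged 31.9 ± 8.84 CPM in RCD, 45.8 ± 6.18 in AM608 and 27.2 ± 4.81 in AM132 (SD, n = 8 each). Each of these 5 had its highest group mean in AM608. In AM132 against RCD, miR-205-5p (3.27, edgeR adjusted p = 5.14e-06) and miR-322-3p (0.22, edgeR adjusted p = 0.033) were higher, unlike the 5p arms, and the other 3 were not called (edgeR adjusted p from 0.263 to 0.561). When deviations from the group means were compared, the nearest were miR-15b-3p (0.705) and miR-214-3p (0.592) for miR-582-5p, and miR-383-5p (0.71) and miR-421-3p (0.664) for miR-582-3p. For miR-676-5p they were miR-128-3p (0.777) and miR-704 (0.725), and for miR-676-3p miR-3066-5p (0.633) and miR-130b-5p (0.621).

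Other hairpins were grouped by host gene symbol and by chromosome, which does not mean that they lie near the members. Hairpins inside genes whose symbol starts with Pde gave 7 arms in the table, of which 4 were tested: the arms of miR-582 and those of miR-139 in Pde2a, another phosphodiesterase gene. miR-139-5p averaged 807.3 CPM in RCD, 832.3 in AM608 and 238.1 in AM132, and its difference between AM608 and RCD did not pass (0.04, edgeR adjusted p = 0.842). miR-139-3p was higher in AM608 than in RCD (0.58, edgeR adjusted p = 2.16e-04). miR-1904, also inside Pde4d, and both arms of miR-7225, inside Pde4dip, had too few reads to be tested.

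Of 46 other tested arms from hairpins on chromosome X, AM608 had 7 higher and 1 lower relative to RCD (median log2 fold change −0.02, against −0.03 over all tested miRNAs, 28.7% of which were called). The higher ones included miR-322-3p (0.53, edgeR adjusted p = 8.20e-06), miR-98-5p (0.32, 1.23e-03) and miR-503-3p (0.45, 2.95e-03), all by the edgeR adjusted p. In AM132 against AM608, 1 of the 46 was higher and 2 were lower (median 0.01, against 0.05 over all tested miRNAs, 12.4% of which were called): miR-881-3p was higher, and miR-322-3p (−0.31, edgeR adjusted p = 5.89e-03) and let-7f-2-3p (−2.74, edgeR adjusted p = 4.08e-05) were lower. In AM132 against RCD, 11 of the 46 were higher and 2 lower, where 34.2% of all tested miRNAs were called and 15.4% as higher.

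A list of 20 miRNAs reported to change in obese or fatty rodent liver, all tested, gave 7 higher and 2 lower in the AM608 livers relative to RCD (median 0.31 on the log2 scale, against −0.03 over all tested miRNAs, 28.7% of which were called and 13.5% as higher). miR-802 has been linked to glucose intolerance in obesity, and miR-103 and miR-107 to insulin sensitivity. The log2 fold change was 2.24 for miR-802-3p and 1.93 for miR-802-5p, below that of both arms of miR-582 and above that of both arms of miR-676. It was 0.38 for miR-103-3p and 0.81 for miR-107-3p (edgeR adjusted p of the 4 from 3.23e-08 to 5.34e-05). miR-21a-5p was lower (−0.68, edgeR adjusted p = 3.18e-05). In AM132 against AM608, 0 of the 20 were higher and 2 were lower by the edgeR test, miR-34a-5p and miR-429-3p, with a median of 0.00. Over all tested miRNAs 8.31% were called lower there, so the count is near that of the whole table.

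The oligonucleotide of AM132 is complementary to miR-132, so each sequence was compared with miR-132-3p (RefSeq). The capitals mark bases 1 to 13, within which the runs shared with the sequences below fall.
miR-132-3p: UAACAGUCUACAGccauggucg
miR-582-5p shared at most 5 bases in a row with it, UACAG, at bases 2 to 6 of miR-582-5p and 9 to 13 of miR-132-3p. Runs of at least 5 bases were found in 82 of 366 tested miRNAs with a mature sequence, miR-132-3p itself left out (22.4%). Among those called by edgeR in AM132 against AM608, 14 of 30 lower ones and 3 of 12 higher ones had such a run. miR-582-5p, chosen for its drop in AM132, is among the 14. A bearing of such runs on the levels was not tested. miR-582-3p shared 4 bases (UAAC) and miR-676-3p 3 (GUC). The 5′ side of the Mir676 hairpin, before the 3p arm begins at base 55, holds a run of 6 (UCUACA, hairpin bases 20 to 25). No share is given for this longer stretch. These are matches of letters, and binding was not measured.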

How the data were processed

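The miRNeasy Mini Kit was used for extraction and a NEBNext small RNA set for library preparation (300 ng RNA, RIN above 8.4), with sequencing on a NextSeq 500, per the labels' protocols. The authors deposited raw read counts for each mature miRNA. Of their software only FastQC appears in the submitters' processing notes; aligner, trimming, genome build and counting rule: not given in the sources used here. tRNA fragments were not analysed here. No molecular identifiers are described. SEs and p-values measure the spread between libraries.

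Members and lists were chosen with earlier results of these data known. Each count column was tied to its sample through group name and number. Duplicate deposits were looked for in 84 pairs of libraries of 1 group, and the smallest chi-square divided by its degrees of freedom was 25.7, so none was merged. edgeR 4.0.16 in R 4.3.3 tested 421 miRNAs (filterByExpr, TMM, robust quasi-likelihood, group as the only term, 24 libraries, Benjamini-Hochberg over all, threshold 0.05); an SE is the absolute log2 fold change over the square root of F. limma 3.58.1 tested log2 arm ratios over 107 precursors. Both were tested on simulated data. DESeq2 1.42.0, limma voom, other scalings and filters, 2-group fits, a replicate block and left-out libraries were alternatives. Shared replicate numbers do not pair the samples.

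Named miRNAs are the 4 members, the 3 with the most similar levels and 2 with the most similar deviations per member, extremes of the arm ratio, and up to 4 per direction from each list by smallest p. Of 1908 names, 1603 had a RefSeq mature sequence; coordinates are from RefSeq and GENCODE M21, both GRCm38.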

Additional observations from a re-analysis of the deposited data

Results flagged for a closer look

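Of 18 sets of 8 values examined (4 arms and 2 arm ratios in 3 groups), 2 held a value far from the rest, where chance gives about 1 in 20 sets. miR-582-5p in AM132 library 2 was at 2.55 CPM, with the other AM132 libraries at 0.138 to 1.13 CPM; without it the log2 fold change of AM132 against RCD was −0.23 (edgeR adjusted p = 0.688) and that of AM132 against AM608 was −3.94. miR-582-3p in RCD library 3 was at 6.17 CPM, with the other RCD libraries at 1.66 to 2.83 CPM; this library also had the highest neuronal, mesenchymal and leukocyte marker sums of the RCD group. Their part in this value was not tested.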

How the results depend on the processing

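Of 560 recomputed values of the 4 arms and their ratios between groups, 559 held. A called value kept its call and direction, and an uncalled one stayed uncalled. A value without a test kept its direction and moved by less than 1 SD between libraries. Leaving out 1 of 8 libraries can hardly move a group mean that far. For untested values, holding in those settings was thus nearly fixed in advance and is no sign of stability. Uncalled values could change sign, as miR-582-5p in AM132 against RCD did without AM132 library 2 (from 0.09 to −0.23). The value that did not hold was miR-676-5p in AM132 against AM608 with library totals, at −1.49. miR-582-5p was not tested at a mean CPM of at least 10, nor against RCD with AM132 and RCD alone. Counts of called miRNAs in AM132 against AM608 were 52, but 91 with library totals (8 higher and 83 lower, against 17 and 35) and 87 with only 2 groups in the fit; in AM132 against RCD they were 144, but 94 at a mean CPM of at least 10. With library totals the higher and lower calls of AM132 against RCD were 27 and 105, against 65 and 79. Relations between arms that passed numbered 0 in AM132, 1 in AM608 and 0 in RCD, but 3, 2 and 1 with library totals, and 0 in AM608 without the 2 farthest libraries. With a replicate block the log2 fold changes of AM132 against RCD were 0.15, 2.77, −0.04 and 0.84 in the order miR-582-5p, miR-582-3p, miR-676-5p, miR-676-3p, and no call changed. Same-numbered libraries of 2 groups had correlated deviations (over 0.1) in 10 of 24 pairs, with r from −0.421 to 0.399 over the 24. In 4 of these 24 pairs the same number was the best match among the 8 libraries of the other group. Chance alone would give that in about 1 of 8 pairs. Few reads of miR-582-5p in RCD and AM132 limit what can be told apart there.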

Other observations

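Runs of bases shared with miR-132-3p were also listed for 366 tested miRNAs with a mature sequence (miR-132-3p itself left out), as a description made after the values had been seen and without a test. A run of at least 8 bases was found in 3 of them: let-7f-2-3p (ACAGUCUAC), miR-212-3p (UAACAGUCU) and miR-28a-5p (ACAGUCUA). All 3 were lower in AM132 than in AM608, with log2 fold changes of −2.74, −1.61 and −0.66 (edgeR adjusted p = 4.08e-05, 0.0441 and 1.46e-05). Over all tested miRNAs, 8.31% were called lower there. At 7 bases, miR-139-5p (UCUACAG) was lower (−1.81, edgeR adjusted p = 1.65e-09), and miR-214-5p, miR-379-3p and miR-7a-1-3p were not called (−0.35, −0.05 and −0.53, edgeR adjusted p = 0.165, 0.935 and 0.153). Of 30 lower miRNAs with a sequence, 14 had a run of at least 5, as had 3 of 12 higher ones and 82 of all 366. miR-582-5p is among the 14, and was chosen for its drop in AM132. Whether shared runs bear on the levels was not tested.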
